A study of Gasterosteus aculeatus with 36 samples.

Results

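The sarcomere and muscle contraction genes of the threespine stickleback (*Gasterosteus aculeatus*) were followed here from embryos in early somitogenesis into early larval life. They were chosen by symbol alone, as the genes of the normalized count table whose names begin with tnni, tnnt, tnnc, mybpc, mybph, actn, myom, smyd1, ckm, ldb3, myoz, tcap or myot, those in which tpm, myh or myl is followed directly by a digit, and ttn or neb alone or with a suffix (a, b, or a point and the digit 1 or 2). The rule found 50 of the 24388 genes in that table, and no tcap gene was among them. By their symbols, 43 of the 50 were grouped as striated muscle genes. Among them are *tpm4a*, which many non-muscle cells also use, and the ubiquitous creatine kinase gene *ckmt1*. The other 7 (*actn1*, *myh11a*, *myh14*, *myl6*, *myl9b*, *myl12.1* and *myl12.2*) are known as non-muscle or smooth muscle forms and are described apart. The name of the gene set thus holds for 43 members at most.

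The study sequenced polyadenylated RNA of 36 whole fish, each a library of its own. Males and females were taken at embryonic stages 17, 20 and 23 and as larvae at 0, 4 and 8 days post hatching (dph), with 3 males and 3 females at each of the 6 stages. No treatment and no allele set the groups apart, and the labels give no clutch or parent for a fish, so p-values measure the spread between these fish. Each stage step was tested as the later over the earlier stage with the sexes weighted equally, and each sex comparison as males over females within a stage.

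The sarcomere is the contractile unit of striated muscle. Thick filaments of myosin slide along thin filaments of actin when calcium binds troponin and troponin shifts tropomyosin on the thin filament. Thin filaments are anchored at the Z-disc, thick filaments are cross-linked at the M-band, titin spans from Z-disc to M-band, nebulin runs along the thin filament, and creatine kinase regenerates the ATP that contraction uses. Fish trunk muscle is mostly fast fibres with a thinner layer of slow fibres, and many of these proteins exist as fast, slow and cardiac forms that separate genes encode.

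The libraries held 8637205 to 52089185 counted reads (median 23246848), and all 50 genes passed the low count filter that left 22168 genes to test. The level of a gene is given as normalized reads, its read count divided by the size factor of the library, and is not corrected for gene length, so the levels of a gene were compared between fish, and those of different genes only as the change of a ratio within a fish. A gene was called when its adjusted p was under 0.05 (edgeR quasi-likelihood test, Benjamini-Hochberg over the 22168 genes), and "rose" and "fell" are used of called genes only. Summed normalized reads of the 6 measured skeletal muscle markers (*acta1b*, *mylpfa*, *mylpfb*, *casq1a*, *atp2a1* and *ryr1b*) averaged 1655, 43983, 94922, 319260, 572954 and 762920 from stage 17 to 8 dph. Those of 12 heart markers averaged 2572 at 8 dph and 4212 at stage 17, and those of 8 smooth muscle markers 13984 at 8 dph and 2246 at stage 17. These sums move with the stages compared below. In the skeletal muscle sum, *mylpfb* was highest at 0 dph, with a mean of 77850, and stood at 41.4% of that at 8 dph. Each of the other skeletal muscle markers was highest at 8 dph. In the heart sum, *gata4* and *gata5* held the most at stage 17, with means of 2016 and 1070. They, *nkx2.5*, *tbx5a* and *tbx20* were highest at stage 17, while the other heart markers were highest at a later stage. The smooth muscle markers were *acta2*, *tagln*, *cnn1b*, *smtna*, *smtnb*, *myh11a*, *myocd* and *lmod1b*. Of these, *smtnb* held the most at stage 17, with a mean of 1549, and stood at 54.8% of that at 8 dph. Every other smooth muscle marker was highest at 4 or 8 dph. Their sum includes *myh11a*, itself 1 of the 50 genes, with a mean of 3961 at 8 dph. In whole fish, more muscle cells and more RNA of a gene per muscle cell cannot be told apart.

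Sarcomere and muscle contraction genes took a small part of the RNA at stage 17 and a growing part at every later stage. In the embryos of stages 17, 20 and 23 their share of counted reads averaged 0.121% ± 0.0083, 0.413% ± 0.0516 and 0.883% ± 0.128, and in the larvae of 0, 4 and 8 dph 2.28% ± 0.175, 3.02% ± 0.377 and 3.63% ± 0.450 (SD, n = 6 fish per stage). The makeup of this share differed between the ends of the series. The 4 creatine kinase genes held 52.6% of the reads of the set at 8 dph and 3.16% at stage 17, while the 7 non-muscle and smooth muscle genes held 2.37% at 8 dph and 63.9% at stage 17. Over all fish, *ckma* and *ckmb*, which encode cytosolic muscle creatine kinase, took 28.1% and 21.9% of the reads of the set, and *tnnt3a*, a fast muscle troponin T, took 9.23%.

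**Figure D1:**
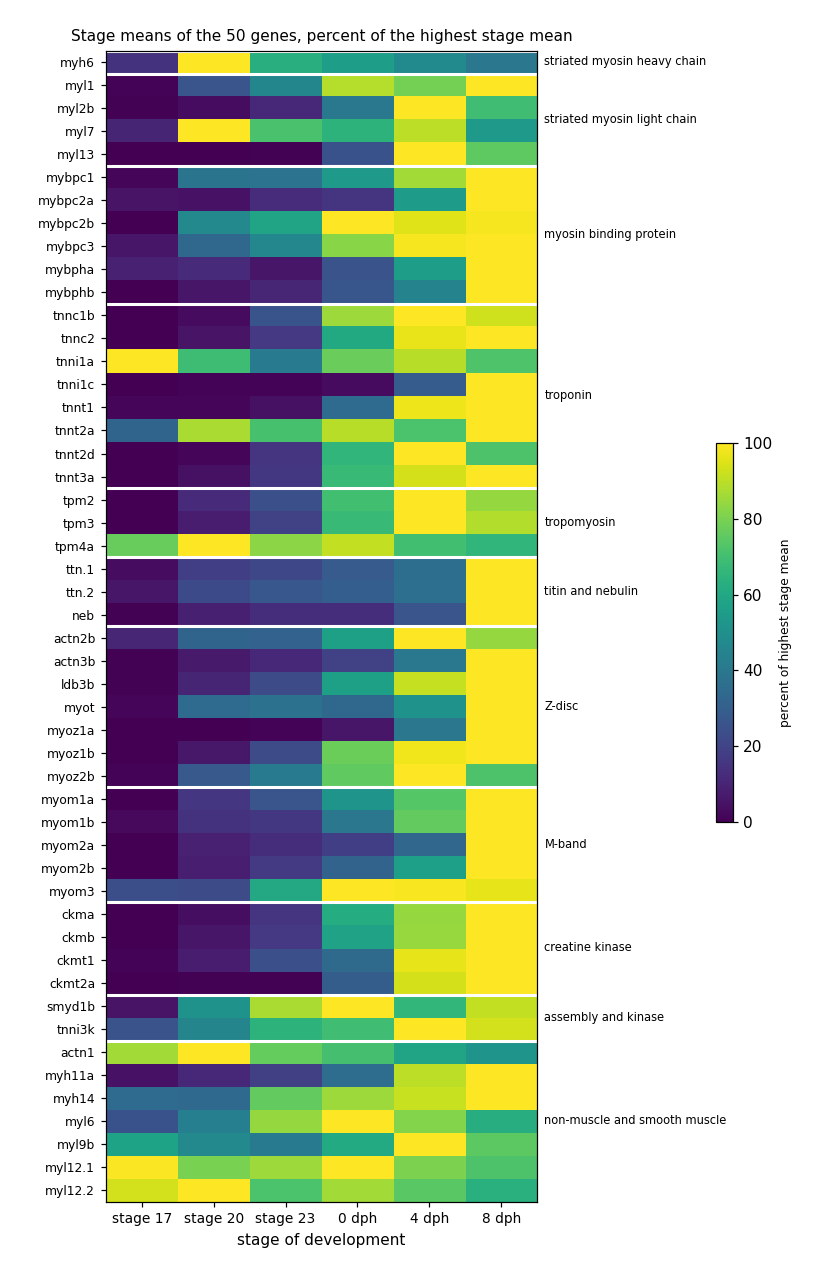
Heat map of the 50 genes, grouped by role (vertical axis), at the 6 stages (horizontal axis). The colour gives the mean normalized reads of the 6 fish of a stage as a percent of the highest stage mean of that gene; 29 genes had that highest mean at 8 dph and 1, *tnni1a*, at stage 17.

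All 50 genes changed over the 6 stages, as did 96.8% of all tested genes. The highest stage mean lay at stage 17 for 1 gene, stage 20 for 5, 0 dph for 5, 4 dph for 10 and 8 dph for 29. The earliest was that of the slow muscle troponin I gene *tnni1a*. Of all genes averaging at least 10 normalized reads, 33.0%, 9.8%, 9.9%, 13.3% and 27.3% were highest at these stages. All 50 were called between stage 17 and 8 dph (87.4% of all tested genes), where 45 were higher at 8 dph (48% of all tested genes were) and 5 were lower (39.4%). The rise was at least 1 on the log2 scale for 44 of the 50, against 38.2% of all tested genes, and the median log2 fold change was 6.21, against 0.24 over all tested genes. In 44 genes every 8 dph fish was above every stage 17 fish, in 3 every 8 dph fish was below, and in 3 the stages overlapped. Such separation was not counted over all tested genes. The genes that fell were *actn1*, *myl12.1*, *myl12.2*, *tnni1a* and *tpm4a*, by 0.30 to 0.81 on the log2 scale.

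The widest step was the first. At stage 20 against stage 17, 42 genes were called (64.3% of all tested genes), of which 39 rose and 3 fell (34.3% and 30.1% of all tested genes), and the median log2 fold change was 2.71. At stage 23 against stage 20, 37 genes were called (58.3%), of which 30 rose and 7 fell (30.2% and 28.1%), with a median of 0.69. At 0 dph against stage 23, 37 genes were called (58.4%) and all of them rose (33.7%), with a median of 0.88. None fell in that step by edgeR or by DESeq2, none was lower at an unadjusted p under 0.05, and 24.7% of all tested genes fell. At 4 dph against 0 dph, 35 genes were called (48.4%), of which 28 rose and 7 fell (24% and 24.4%), with a median of 0.47. At 8 dph against 4 dph, 22 genes were called (17.9%), of which 14 rose and 8 fell (8.44% and 9.47%), with a median of 0.07. Rises of at least 1 on the log2 scale numbered 34, 19, 18, 10 and 8 of the 50 genes in the 5 steps, against 21.6%, 15.9%, 15%, 8.16% and 2.3% of all tested genes. The last step thus held fewer calls among these genes and among all genes, and the medians over all tested genes lay between -0.01 and 0.08 in the 5 steps. The counts of genes that fell were the least steady: 1 fell in the first step without stage 17 female 1, and in the last step 4 fell without 4 dph female 2 and 5 without 8 dph female 1.

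**Figure D2:**
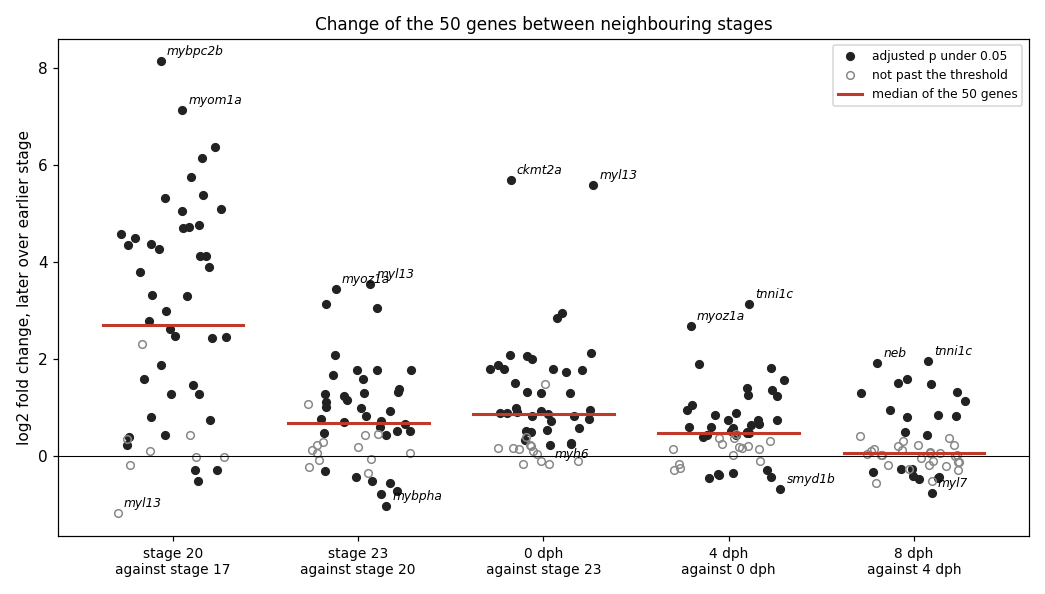
Log2 fold change of each of the 50 genes (points) in the 5 stage steps (horizontal axis), later over earlier stage. Filled points are genes called at an adjusted p under 0.05, open points are not called, and the red line is the median, which is 2.71 in the first step and 0.07 in the last.

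Genes differed in when they first rose. The first called rise was at stage 20 for 39 genes, at stage 23 for 6, at 0 dph for 4 and at 4 dph for 1. Only 4 genes, *actn3b*, *mybphb*, *myom2a* and *myom2b*, rose in all 5 steps, 13 rose in 4, 18 in 3, 7 in 2 and 8 in 1. The call of *myom2a* was lost at stage 23 without stage 20 male 2, male 3 or female 1 or stage 23 male 1, male 2 or female 2 (adjusted p 0.0581 to 0.115), and at 0 dph without stage 23 female 1 or 0 dph male 3 (0.056 and 0.0992). In 15 genes a rise in some step went with a fall in another. Counts of first rises, of steps with a rise and of genes that both rose and fell were not made over all tested genes. The counts given here therefore do not show a feature particular to these genes. *myoz1a*, which rose in 4 steps, was the gene with the largest change over the whole series, and *tnni1c* the gene with the latest first rise.

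In the thick filament, only 1 striated myosin heavy chain gene carried a symbol that the rule could find, *myh6*, the atrial myosin heavy chain of zebrafish. It had 524 to 786 normalized reads at stage 20 (median 644), against 68.0 to 126 at stage 17 (median 93.7), with no overlap, and rose by 2.79 ± 0.18 (log2 fold change ± SE, adjusted p = 1.61e-14). At stage 23 it had 291 to 583 normalized reads (median 405), and it fell by 0.71 relative to stage 20 (adjusted p = 0.000305). No later step was called, and its level at 8 dph was 208 to 324 normalized reads (median 253). The cardiac regulatory light chain *myl7* also rose at stage 20 and fell at stage 23. It had 829 to 1333 normalized reads at stage 20 (median 1087), against 93.5 to 142 at stage 17 (median 103), a rise of 3.32 ± 0.19 (adjusted p = 6.22e-16), and it fell by 0.55 at stage 23 (adjusted p = 0.00448). It rose again at 4 dph, with overlap of the 0 and 4 dph fish, to 709 to 1265 normalized reads (median 941). In the last step it fell, to 305 to 797 normalized reads at 8 dph (median 565), by 0.76 (adjusted p = 0.00155). The sum of the heart markers, which includes *myl7* itself, averaged 4173 normalized reads at stage 20 and 4212 at stage 17. Its largest parts at stage 17 were *gata4* and *gata5*.

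The other light chains kept higher levels after hatching. *myl1*, the fast muscle essential light chain, had 4580.4 to 9452 normalized reads at stage 20 (median 6257), against 140.0 to 436 at stage 17 (median 239), and rose by 4.72 ± 0.21 (adjusted p = 3.14e-18). It rose again by 0.78 at stage 23 and by 0.96 at 0 dph, and neither larval step was called. *myl2b*, the counterpart of the slow and ventricular regulatory light chain of mammals, started near 0, with 0 to 6.53 normalized reads at stage 17, and had 394 to 672 at 4 dph (median 554), against 147 to 334 at 0 dph (median 221). It rose in each of the first 4 steps, by 2.46, 1.78, 1.78 and 1.26, with the first step at 3.10 without stage 17 male 1, and the first and second at 1.67 and 2.58 without stage 20 female 1. *myl13* was close to absent before hatching. It had at most 1.14 normalized reads in any fish of stages 17 and 20, and 65.0 to 170 at 0 dph (median 138), against 0 to 5.77 at stage 23 (median 2.89). That rise was 5.59 ± 0.31 (adjusted p = 1.23e-14), a further rise of 1.91 ± 0.21 followed at 4 dph (adjusted p = 1.98e-08), and the fish of the 3 stages did not overlap.

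Myosin binding proteins C and H sit along the thick filament, where the mammalian forms 1, 2 and 3 of protein C are named slow, fast and cardiac. *mybpc2b* had the largest log2 fold change of the 50 genes in the first step. Its stage 20 fish had 2948 to 4301 normalized reads (median 3322), against 0 to 28.3 in the stage 17 fish (median 18), and the change was 8.14 ± 0.29 (adjusted p = 1.01e-20). After that it was called only at 0 dph, by 0.78 (adjusted p = 0.000519), when it had 4504 to 12185 normalized reads (median 6447), against 3287 to 5765 at stage 23 (median 4013). *mybpc1* had 363 to 826 normalized reads at stage 20 (median 559), against 8.49 to 32.6 at stage 17 (median 16.4), a rise of 4.78 ± 0.24 (adjusted p = 2.89e-17). *mybpc3* had the smallest rise of the 3 in that step, 2.49 ± 0.13 (adjusted p = 1.31e-16), and was already at 78.5 to 144 normalized reads at stage 17 (median 107). *mybphb* rose at every step, to 22691 to 39646 normalized reads at 8 dph (median 30573), against 11567 to 18549 at 4 dph (median 12791), where the change was 1.14 ± 0.17 (adjusted p = 2.35e-05). *mybpha* fell to 20.4 to 55.0 normalized reads at stage 23 (median 38.3), against 68.2 to 79.7 at stage 20 (median 72.9), by 1.02 (adjusted p = 4.54e-06), and then rose by 2.07 ± 0.16 at 0 dph (adjusted p = 4.27e-12). The remaining gene of this group, *mybpc2a*, first rose at stage 23 and is described with its paralog below.

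**Figure D3:**
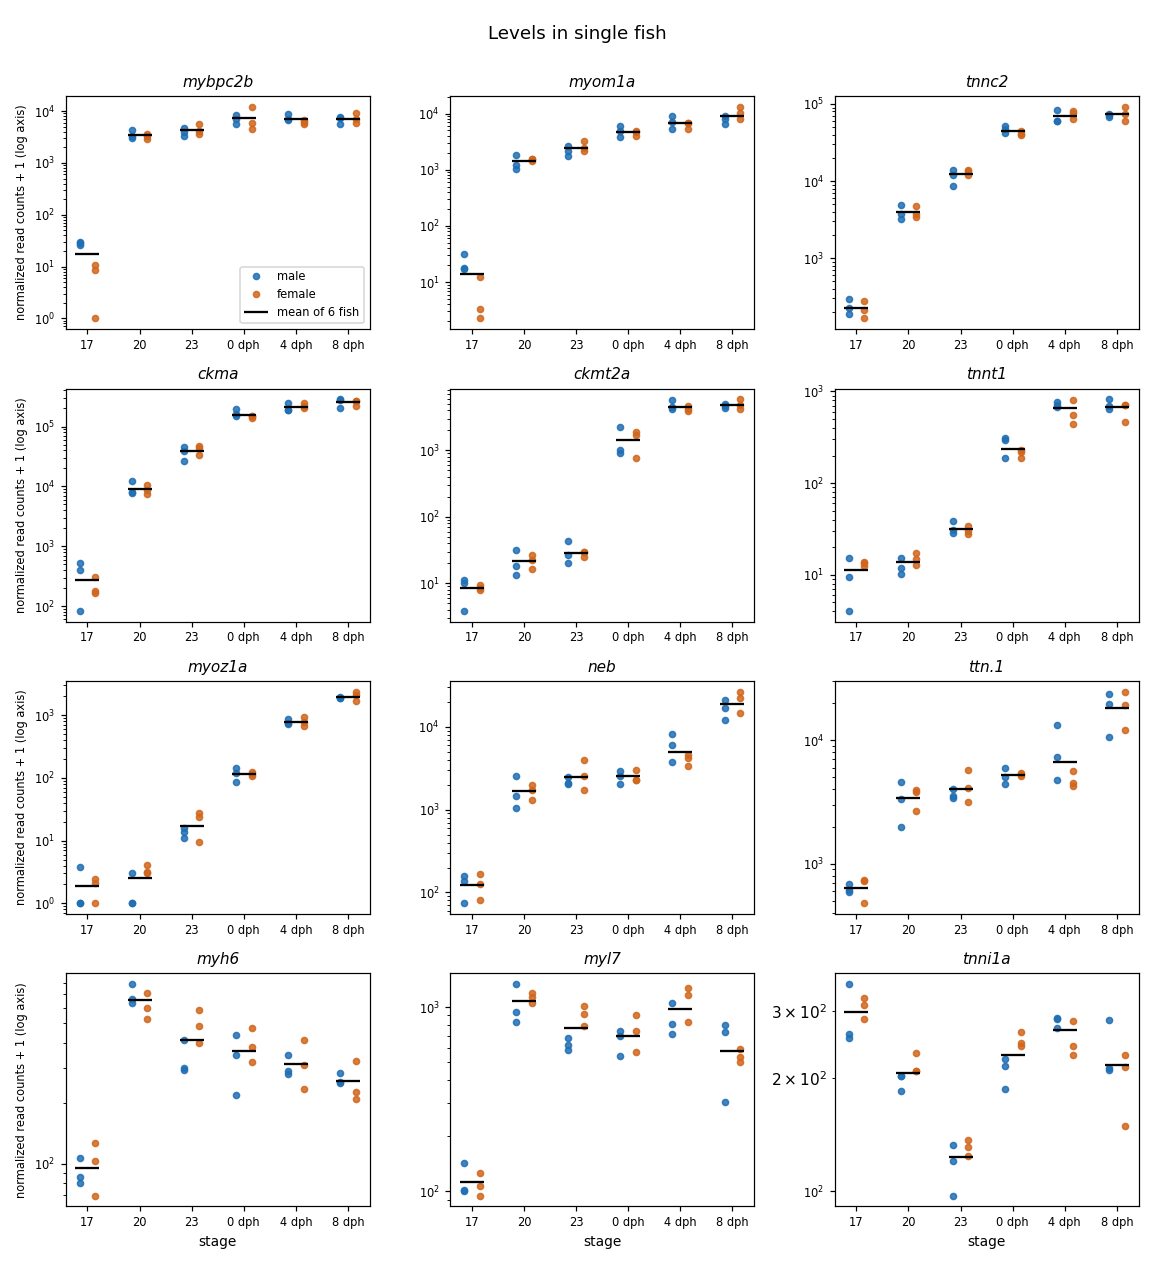
Normalized reads + 1 (vertical axis, log scale) of 12 genes in every fish at the 6 stages (horizontal axis), males left and females right within a stage, with a bar at the mean of the 6 fish. *mybpc2b* and *myom1a* step up at stage 20, *ckmt2a* steps up at 0 dph (769 to 2258 normalized reads), and *neb* and *ttn.1* step up at 8 dph.

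In the thin filament, troponin is a complex of the calcium sensor troponin C, the inhibitor troponin I and the tropomyosin-binding troponin T. Of the 8 troponin genes, 5, 5, 7, 4 and 2 rose in the 5 steps, against 34.3%, 30.2%, 33.7%, 24% and 8.44% of all tested genes. Their summed share of counted reads averaged 0.6665% at 8 dph and 0.0034% at stage 17. *tnnc2*, the fast muscle troponin C, had 3255 to 4924 normalized reads at stage 20 (median 3738), against 164 to 296 at stage 17 (median 219.9), and rose by 4.14 ± 0.16 (adjusted p = 1.05e-19). At 0 dph it had 39806 to 51805 (median 43647), against 8629.7 to 13881 at stage 23 (median 12639), and rose by 1.87 ± 0.14 (adjusted p = 3.18e-12). No fish overlapped between neighbouring stages up to 0 dph. *tnnc1b*, of the slow and cardiac troponin C type, stayed lower for longer. It had 915 to 1861 normalized reads at stage 23 (median 982), against 46.4 to 205 at stage 20 (median 115), and the rise at stage 23 was 3.14 ± 0.21 (adjusted p = 1.91e-13).

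The troponin T genes separated by their timing. The fast form *tnnt3a* rose by 5.33 ± 0.29 in the first step (adjusted p = 2.37e-16), to 1849.7 to 5640.3 normalized reads at stage 20 (median 3603), against 11.3 to 186 at stage 17 (median 69.2). *tnnt1*, the slow form, was not called in that step (log2 fold change 0.45, adjusted p = 0.179), with 9.26 to 16.1 normalized reads at stage 20 and 3.04 to 14.2 at stage 17. It rose by 2.95 ± 0.16 at 0 dph (adjusted p = 2.42e-15), to 188 to 306 normalized reads (median 224), against 26.6 to 37.6 at stage 23 (median 29.5), and the stages did not overlap. *tnnt2a*, named after cardiac troponin T, had the narrowest course of the 4, with 446 to 569 normalized reads at stage 20 (median 499), against 141 to 216 at stage 17 (median 193), and 345 to 781 at 8 dph (median 552). It fell by 0.43 at 4 dph (adjusted p = 0.0179), with overlap of the 0 and 4 dph fish. *tnnt2d*, of the same name family, rose by 3.91 at stage 20, 3.06 at stage 23 and 2.1 at 0 dph (adjusted p at most 3.25e-13), and had 1802 to 4031 normalized reads at 0 dph (median 2699), against 367 to 983 at stage 23 (median 660.1). At 8 dph it fell by 0.44 (adjusted p = 0.0187), with overlap of the 4 and 8 dph fish. The difference of *tnnt2d* and *tnnt3a* between the sexes is given below.

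The 2 troponin I genes, both named after the slow muscle form, differed in their course. *tnni1a* was highest at stage 17, at 254 to 354 normalized reads (median 299), fell to 183 to 232 at stage 20 (median 204), by 0.50 (adjusted p = 0.000122), and fell to 96.3 to 136 at stage 23 (median 126), by 0.77 (adjusted p = 2.9e-07). It then rose by 0.90 ± 0.10 at 0 dph (adjusted p = 1.46e-08), to 186 to 264 normalized reads (median 233), and the fish of these neighbouring stages did not overlap in any of the 3 steps. *tnni1c* had 0 reads in all 6 stage 17 fish, and no more than 6.81 normalized reads in any fish up to 0 dph. It had 9.98 to 65.7 at 4 dph (median 38.7), a rise of 3.14 ± 0.47 (adjusted p = 5.84e-06), and 73.4 to 217 at 8 dph (median 105), a rise of 1.96 ± 0.36 (adjusted p = 0.000484). Against a floor of 3 reads over the 6 stage 17 fish, it was at least 205.6-fold higher at 8 dph.

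Tropomyosin lies along the actin filament and covers its myosin-binding sites. *tpm2* and *tpm3* rose together in each of the first 4 steps. *tpm3* had 460.5 to 986 normalized reads at stage 20 (median 635), against 2.28 to 21.5 at stage 17 (median 6.03), a change of 6.38 ± 0.26 (adjusted p = 3.33e-19). *tpm2* had 759.7 to 1342 at stage 20 (median 1105), against 8.49 to 23 at stage 17 (median 14.9), a change of 6.14 ± 0.19 (adjusted p = 3.06e-22). The third gene, *tpm4a*, which many non-muscle cells also use, was at 4047 to 5278 normalized reads at 8 dph (median 4717) and had been at 4832 to 5773 already at stage 17 (median 5562). It rose by 0.41 at stage 20 and fell by 0.30 at stage 23 and by 0.45 at 4 dph.

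The genes of titin and nebulin, giant proteins of the sarcomere, rose at the first and at the last step, and that of nebulin also between them. The titin gene *ttn.1* had 1989 to 4595 normalized reads at stage 20 (median 3579.7), against 477 to 741 at stage 17 (median 651), and rose by 2.43 ± 0.23 (adjusted p = 1.55e-10). From stage 20 to 4 dph no step of *ttn.1* or *ttn.2* was called, with log2 fold changes between 0.16 and 0.41 and adjusted p of at least 0.111. At 8 dph, *ttn.1* had 10627 to 24847 normalized reads (median 19516), against 4282 to 13386 at 4 dph (median 5199.7), and rose by 1.52 ± 0.22 (adjusted p = 1.56e-05). The stages overlapped only because 4 dph male 1, at 13386, was above 8 dph male 1 at 10627 and 8 dph female 1 at 12111. *ttn.2* rose by 1.48 ± 0.21 (adjusted p = 1.07e-05), and overlapped because 4 dph male 1, at 12219.5, was above 8 dph male 1 at 9915. Nebulin, *neb*, had 12021 to 26795 normalized reads at 8 dph (median 19139), against 3386 to 8209 at 4 dph (median 4393), with no overlap, and rose by 1.93 ± 0.23 (adjusted p = 4.18e-07). It rose also by 0.52 at stage 23, a call lost with a replicate block, and by 0.89 ± 0.22 at 4 dph (adjusted p = 0.00137). In the last step, where 2.3% of all tested genes rose by at least 1 on the log2 scale, all 3 of these genes did so, together with *tnni1c*, *myom2a*, *myoz1a*, *actn3b* and *mybphb*.

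Alpha-actinin cross-links thin filaments at the Z-disc, where myotilin (*myot*), the PDZ and LIM protein encoded by *ldb3b* and the calcineurin-binding myozenins (*myoz1a*, *myoz1b* and *myoz2b*) also sit. Of these 7 genes, 6, 5, 6, 5 and 3 rose in the 5 steps, against 34.3%, 30.2%, 33.7%, 24% and 8.44% of all tested genes. *actn3b*, the fast muscle alpha-actinin, had 18617 to 31113 normalized reads at 8 dph (median 25657), against 7257 to 14732 at 4 dph (median 9705), and 63.7 to 158 at stage 17 (median 87.8). It rose by 4.13 ± 0.25 in the first step (adjusted p = 2.51e-15) and by 1.31 ± 0.21 in the last (adjusted p = 4.2e-05). *actn2b*, the alpha-actinin of all striated muscle in mammals, rose less in the first step, by 1.60 ± 0.08 (adjusted p = 6.14e-17), and had its highest mean at 4 dph, at 1156 to 1510.2 normalized reads (median 1404). *ldb3b* had 667 to 1126 normalized reads at stage 20 (median 848), against 22.6 to 58.8 at stage 17 (median 32.2), a rise of 4.50 ± 0.21 (adjusted p = 3.68e-18). *myoz2b* rose in 3 steps and fell by 0.46 at 8 dph (adjusted p = 0.0186), with overlap of the 4 and 8 dph fish. *myot* rose by 4.27 ± 0.24 at stage 20 (adjusted p = 7.25e-16), was not called at stage 23 or 0 dph, and rose by 0.96 ± 0.17 at 8 dph (adjusted p = 0.0002), to 683 to 1197 normalized reads (median 909.8), against 364 to 685 at 4 dph (median 424).

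*myoz1a* had the largest log2 fold change of the 50 genes between stage 17 and 8 dph, 10.67 ± 0.30 (adjusted p = 3.66e-24), and 12.47 when stage 17 male 1 was left out, since its stage 17 fish held only 0 to 2.80 normalized reads. It was not called at stage 20, where the fish held 0 to 3.07 normalized reads. It then rose in every step, to 8.64 to 26.9 normalized reads at stage 23 (median 13.8), 86.2 to 144 at 0 dph (median 117), 670.5 to 936 at 4 dph (median 755) and 1683 to 2379 at 8 dph (median 1912). No 2 of these stages overlapped. The log2 fold changes were 3.45, 2.86, 2.68 and 1.32 (adjusted p at most 1.81e-07), the first of them 4.93 when stage 20 male 3 was left out.

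Myomesins tie thick filaments together at the centre of the sarcomere, the M-band. *myom1a* rose by 7.14 ± 0.26 in the first step (adjusted p = 2.59e-20), with 1049.6 to 1852 normalized reads at stage 20 (median 1469.9), against 1.25 to 30.4 at stage 17 (median 13.6), and by 7.80 when stage 17 female 1 was left out. *myom1b*, *myom2a* and *myom2b* rose in that step by 2.63, 5.38 and 4.58. *myom3* was not called at stage 20 (log2 fold change -0.01, adjusted p = 0.991) and had 44.7 to 98.8 normalized reads at stage 23 (median 87.1), against 6.2 to 51.0 at stage 20 (median 32.0), a rise of 1.34 ± 0.26 (adjusted p = 5.8e-05). At 8 dph *myom2a* rose by 1.59 ± 0.19 (adjusted p = 8.28e-07), to 9555 to 14521 normalized reads (median 11478), against 3179 to 5083 at 4 dph (median 3506), with no overlap. *myom2b* rose by 0.81 in the same step (adjusted p = 0.000703), and *myom1a*, *myom1b* and *myom3* were not called.

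The cytosolic creatine kinase genes *ckma* and *ckmb* and the mitochondrial genes *ckmt1* and *ckmt2a* are not structural parts of the sarcomere, and the rule took them in by name. All 4 rose at stage 20 and at 0 dph, 3 rose at stage 23 and 3 at 4 dph, and none was called at 8 dph against 4 dph (adjusted p 0.312 to 0.805). *ckma* had 7322 to 12246 normalized reads at stage 20 (median 8410.2), against 82.1 to 519 at stage 17 (median 237), and rose by 5.07 ± 0.26 (adjusted p = 9.43e-17). At 0 dph it had 141318 to 194293 (median 150807), against 26676 to 47497 at stage 23 (median 40762), and rose by 2.02 ± 0.23 (adjusted p = 8.02e-09). *ckmt2a*, the counterpart of the sarcomeric mitochondrial creatine kinase of mammals, had the largest rise of the 50 genes at 0 dph. Its 0 dph fish had 769 to 2258 normalized reads (median 1375), against 19.1 to 41.7 in the stage 23 fish (median 27.0), and the change was 5.70 ± 0.25 (adjusted p = 1.07e-17). A further rise of 1.58 ± 0.19 at 4 dph (adjusted p = 8.24e-08) brought it to 3899 to 5648 normalized reads (median 4319), and neighbouring stages from stage 23 to 4 dph did not overlap.

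*smyd1b* encodes a methyltransferase that zebrafish fast muscle needs to assemble myosin filaments. It had 1096 to 1536 normalized reads at stage 20 (median 1224), against 103 to 221 at stage 17 (median 115), a rise of 3.30 ± 0.17 (adjusted p = 3.93e-17). At 4 dph it fell to 1422 to 2109 normalized reads (median 1622), against 2130.3 to 3298 at 0 dph (median 2397), by 0.67 (adjusted p = 0.000282), without overlap, the largest fall of the 50 genes in that step. *tnni3k*, a heart kinase that is not itself a troponin I, had 4.25 to 76.0 normalized reads over all fish.

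The share of counted reads of the 7 non-muscle and smooth muscle genes averaged 0.0772%, 0.0782% and 0.0915% in the embryos of stages 17, 20 and 23, and 0.0982%, 0.0945% and 0.0854% in the larvae of 0, 4 and 8 dph. Their course differed from gene to gene. The smooth muscle myosin heavy chain *myh11a* rose in each of the first 4 steps, by 1.29, 0.67, 0.93 and 1.25, and had 2890.0 to 5016 normalized reads at 4 dph (median 3274), against 1177 to 1707 at 0 dph (median 1448). *myh14*, a non-muscle myosin heavy chain, was called in a single step, stage 23, with 2018 to 2863 normalized reads (median 2382), against 871 to 1204 at stage 20 (median 1148), a rise of 1.12 ± 0.10 (adjusted p = 1.17e-10). *actn1*, the non-muscle alpha-actinin, had 1337 to 1847 normalized reads at 8 dph (median 1464), against 2359.6 to 2792 at stage 17 (median 2466), without overlap, and fell by 0.81 (adjusted p = 1.13e-10). The regulatory light chains *myl12.1* and *myl12.2* fell by 0.54 and 0.64 between the same stages. *myl9b*, a regulatory light chain of smooth and non-muscle cells, rose by 0.58 and 0.64 at 0 and 4 dph and fell by 0.28 at stage 20 (adjusted p = 0.042) and by 0.43 at 8 dph (adjusted p = 0.0109). The fall at stage 20 was lost without stage 17 male 1, female 1 or female 3 or stage 20 male 1, male 3, female 2 or female 3 (adjusted p 0.0522 to 0.144) and with scaling by library size alone (0.249), and that at 8 dph without 4 dph male 1 (0.0542). *myl6*, an essential light chain, rose by 0.80 at stage 20 and 0.94 at stage 23 and fell by 0.37 at 4 dph and 0.40 at 8 dph.

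Sticklebacks, like other teleosts, kept many gene pairs from a whole genome duplication. Pairs were taken here by symbol alone, where names differ only in a last a or b or in the digit after a point. Whether a pair arose in that duplication was not examined. The 8 pairs in which both genes averaged at least 10 normalized reads were compared by the log2 ratio of the first to the second gene within each fish, which does not depend on the size factor beyond a pseudocount of 1. Each pair was tested in the 5 stage steps by an exact two-sided permutation test over 6 against 6 fish, for which the smallest p is 0.00216 (0.00433 after Benjamini-Hochberg adjustment over the 40 tests). The ratio changed in 25 of the 40 tests, and each pair changed in at least 1 step. Pairs outside the gene set were not tested, so this count does not show a feature particular to these pairs. Reads shared between near-identical copies may be lost, since only uniquely mapped reads were counted.

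In *mybpc2a* and *mybpc2b*, the b gene rose first and the a gene followed. The log2 ratio of a to b averaged -7.20 ± 0.25 at stage 20, against 0.09 ± 3.67 at stage 17 (SD, n = 6 each, adjusted exact p = 0.00433), a change of -7.29. This change lay between -6.24 without stage 17 female 2 and -8.29 without stage 17 male 3. At stage 23 *mybpc2a* had its first rise, by 1.29, and the ratio averaged -6.25 ± 0.51, a change of 0.95 (adjusted exact p = 0.00433). At 4 dph the ratio averaged -4.84 ± 0.23, against -6.72 ± 0.52 at 0 dph, and at 8 dph -4.04 ± 0.39 (adjusted exact p = 0.00433 for both steps, n = 6 each). *mybpc2a* had 193 to 272 normalized reads at 4 dph (median 253), against 55.1 to 83.5 at 0 dph (median 60.0), and rose by 1.82 ± 0.30 (adjusted p = 1.32e-05). *myoz1a* and *myoz1b* followed the same order, the b gene first. Their ratio averaged -7.72 ± 1.0 at stage 20, against -1.85 ± 1.37 at stage 17, and -1.91 ± 0.21 at 8 dph, against -3.22 ± 0.25 at 4 dph (adjusted exact p = 0.00433 for both steps, n = 6 each). *myoz1b* had 324 to 704 normalized reads at stage 20 (median 460.3), against 0 to 21 at stage 17 (median 7.25), a rise of 5.76 ± 0.32 (adjusted p = 4.51e-16).

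In the other pairs the changes differed in size and direction. Since reads are not corrected for gene length, the sign of a ratio does not say which gene had more transcripts, and only its change is read. For *myom1a* and *myom1b* the log2 ratio averaged 1.14 ± 0.20 at stage 20, against -3.43 ± 1.60 at stage 17 (adjusted exact p = 0.00433, n = 6 each). The ratio of *mybpha* to *mybphb* fell in the first 2 steps, with means of -0.40 ± 0.61 at stage 17, -4.58 ± 0.39 at stage 20 and -6.51 ± 0.59 at stage 23. The ratio of *ckma* to *ckmb* averaged 0.25 ± 0.08 at stage 23, against -0.45 ± 0.13 at stage 20 (adjusted exact p = 0.00433, n = 6 each). The ratio of the titin genes *ttn.1* and *ttn.2* changed by 0.55 at stage 20 and by 0.24 at 0 dph, with a stage mean of 0.09 at 8 dph and -0.72 at stage 17. That of *myl12.1* and *myl12.2* changed by -0.41 at stage 20 and by 0.58 at stage 23, with stage means between 2.75 and 3.33 (adjusted exact p = 0.00433 for all 4 changes, n = 6 each).

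**Figure D4:**
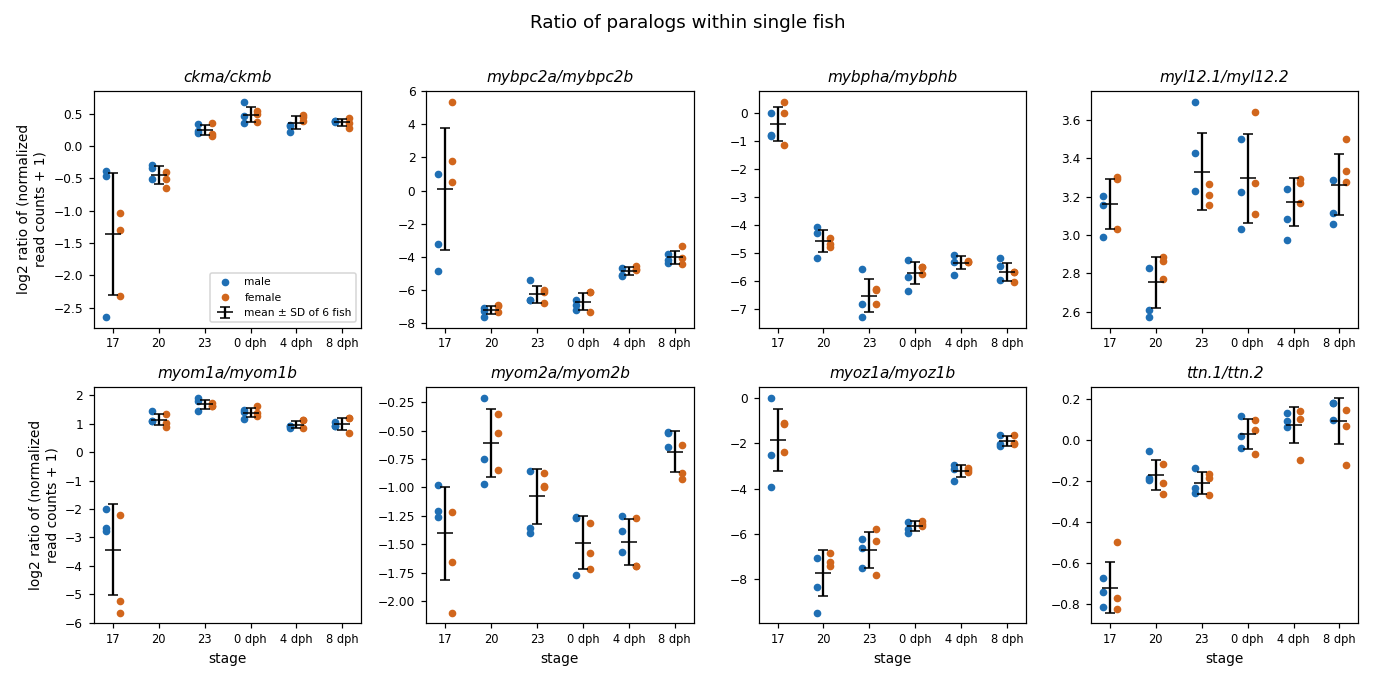
Log2 ratio of the first to the second gene (vertical axis, normalized reads + 1) in 8 paralog pairs at the 6 stages (horizontal axis), with single fish as points and the mean ± SD of 6 fish. *mybpc2a*/*mybpc2b* falls to a mean of -7.20 at stage 20 and stands at -4.04 at 8 dph, while *ttn.1*/*ttn.2* stays between -0.72 and 0.09.

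In each stage few of these genes were called between males and females, as was also the case over all tested genes. Among these genes, 3 accounted for most calls. In males against females, 2 genes were called in the embryos of stage 17 (4.42% of all tested genes), 3 in those of stage 20 (4.63%) and 3 in those of stage 23 (4.92%), and 2, 4 and 4 in the larvae of 0, 4 and 8 dph (4.73%, 4.73% and 4.83%). They were 8 genes in all, and *ckmt1*, *tnnt2d* and *tnnt3a* were the 3 called in 3 or more stages. All 3 were lower in males from stage 20 on, with no overlap of the sexes. At stage 17 the sexes overlapped and none of the 3 was called. The log2 fold changes of males over females were then 1.27 for *tnnt3a*, 1.04 for *tnnt2d* and 0.02 for *ckmt1*. *tnnt2d* had only 0 to 9.34 normalized reads at that stage.

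The ubiquitous mitochondrial creatine kinase gene *ckmt1* had 178, 136 and 145 normalized reads in stage 20 males, against 317, 318 and 414 in stage 20 females, a log2 fold change of -1.19 ± 0.16 (adjusted p = 1.29e-06). At 8 dph it had 2504, 2789 and 1863 in males, against 4433, 4282 and 3892 in females (log2 fold change -0.84 ± 0.14, adjusted p = 5.54e-05). The 3 stages between gave -1.08, -0.78 and -1.02, all called. *tnnt2d* had 62.4, 40.3 and 44.3 normalized reads in stage 20 males, against 146, 69.6 and 112 in stage 20 females (-1.13 ± 0.25, adjusted p = 0.00225, and 0.0761 without female 1). At 4 dph it had 2507, 2439 and 2766 in males, against 5404, 6308 and 6350.2 in females (-1.24 ± 0.19, adjusted p = 1.03e-05). It was called at stages 23, 0 dph and 8 dph as well, at -1.0, -1.02 and -0.98, and from stage 20 on the mean of the males was 0.427 to 0.512 of the mean of the females.

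*tnnt3a* had 43211, 54779 and 53054 normalized reads in 8 dph males, against 85494, 112926 and 123714 in 8 dph females. Its log2 fold change was -1.10 ± 0.33 at stage 20 (adjusted p = 0.0461), -1.15 ± 0.32 at stage 23 (adjusted p = 0.0271) and -1.11 ± 0.32 at 8 dph (adjusted p = 0.0376). At 0 dph it was -0.86 ± 0.32 (adjusted p = 0.213) and at 4 dph -1.0 ± 0.32 (adjusted p = 0.0878), short of the threshold although the sexes did not overlap. These calls were close to the threshold. By DESeq2 the adjusted p was 0.0676 at stage 20 and 0.0607 at 8 dph. The call was lost at stage 20 without male 2 or 3 or any 1 of the females (adjusted p 0.0614 to 0.27), at stage 23 without male 2 or 3 or female 1 or 2 (0.0691 to 0.246), and at 8 dph without any 1 of the males or female 2 or 3 (0.0899 to 0.197). In each of these refits *tnnt3a* stayed lower in males, by 0.93 to 1.22 on the log2 scale.

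**Figure D5:**
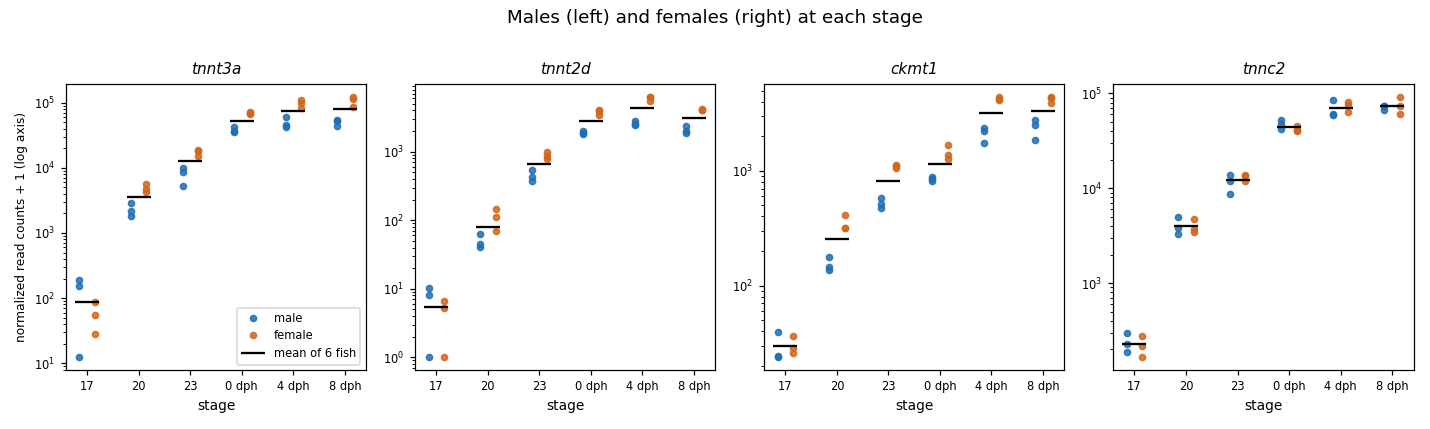
Normalized reads (vertical axis, log scale) of *tnnt3a*, *tnnt2d*, *ckmt1* and, for comparison, *tnnc2* in single fish of each stage (horizontal axis), males left and females right. The sexes of the first 3 genes do not overlap from stage 20 on, with log2 fold changes of males over females between -1.24 and -0.78.

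Of the 43 genes with a place in the reference gene table (assembly fGasAcu3.hap1.1), *tnnt2d* was the only 1 on the X chromosome, of which stickleback males have a single copy. The 761 tested X genes of that table had a median log2 fold change of males over females between -0.97 and -0.94 in the 6 stages. *tnnt3a* and *ckmt1* were not matched to that table, and their chromosome was not analysed here. The part of X copy number in the differences of the 3 genes was not tested.

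The other 5 genes were called in a single stage each. At stage 17, *mybpc2b* had 25.2, 27.4 and 28.3 normalized reads in males, against 9.92, 0 and 7.48 in females (2.27 ± 0.61, adjusted p = 0.0218), and *myom1a* had 15.9, 30.4 and 17 in males, against 11.3, 2.28 and 1.25 in females. These are the first and second genes by size of the rise that followed at stage 20, at which the sexes overlapped for both. *tnni1c* and *tnnt2a* were lower in males at 4 dph, by 1.91 and 0.75 on the log2 scale, and *myl13* at 8 dph, by 1.03. All 5 calls rested on few fish. That of *mybpc2b* was lost without stage 17 male 1, male 2 or female 2 (adjusted p 0.0579 to 0.179), and its log2 fold change was 1.63 without female 2 and 2.86 without female 1. That of *myom1a*, 2.22, was lost without male 2, female 2 or female 3 (0.152 to 0.243), and was 3.54 without female 1. That of *tnni1c* was lost without 4 dph male 1, male 3 or any 1 of the females (0.0531 to 0.188), and its log2 fold change was -2.51 without male 2. That of *tnnt2a* was lost without male 1, male 3, female 2 or female 3 (0.0668 to 0.266), and that of *myl13* without any 1 of the 8 dph males or female 2 or 3 (0.0713 to 0.176). Without stage 17 male 2 or female 2 none of the 50 genes was called at stage 17, and without male 3 4 were. In the test of whether the sex difference varied with stage, edgeR called 0 of the 50 genes (0.0451% of all tested genes), with 4 at an unadjusted p under 0.05, DESeq2 called 3, and edgeR called 1 without stage 17 male 3. The share of all genes that DESeq2 called in this test is not given here, so its 3 calls are not read as a result about these genes.

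The median coefficient of variation within a stage and sex was 16.7% over the 50 genes and 12.9% over all genes averaging at least 10 normalized reads. Some fish were the highest or the lowest of their stage in many of the 50 genes. Such counts were not made over all tested genes, so they do not show a feature particular to these genes. At stage 23, female 2 was the highest of the 6 fish in 26 of the 50 genes and male 2 the lowest in 23. At 8 dph, female 3 was the highest in 27 and male 1 the lowest in 26. At 4 dph, male 1 was the highest in 24, and at stage 20 male 1 was the highest in 23 and male 2 the lowest in 22. Leaving out 4 dph male 1 moved the last step of *ttn.1*, *ttn.2* and *neb* to 1.77, 1.72 and 2.08 on the log2 scale, and 21 genes were called in place of 22.

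Of 91 listed genes of contraction whose symbols the rule does not take in (sarcomeric actin and myosin partners, filament-end and Z-disc proteins, the calcium release machinery and assembly factors), 58 were measured and 57 tested. Among the 57, 49 rose and 3 fell at stage 20, 35 rose and 6 fell at stage 23, 31 rose and 7 fell at 0 dph, 20 rose and 9 fell at 4 dph, and 17 rose and 6 fell at 8 dph. Over all tested genes, 34.3%, 30.2%, 33.7%, 24% and 8.44% rose and 30.1%, 28.1%, 24.7%, 24.4% and 9.47% fell in these steps. In the first step the largest rises were those of *fhl1a*, a LIM domain protein (6.17 on the log2 scale), and *lmod2b*, which nucleates thin filaments (5.59). Next were *stac3*, an adaptor of the calcium channel (5.41), *desma*, the intermediate filament desmin (5.4), and *atp2a1*, the fast muscle calcium pump (5.37). All 4 measured genes of actin and myosin rose in that step. The skeletal actin gene *acta1b* had 21252 to 36487 normalized reads at stage 20 (median 27589), against 506 to 1270.2 at stage 17 (median 832).

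Of the 22 tested genes of excitation and calcium handling, 15, 14, 15, 11 and 7 rose in the 5 steps, against 34.3%, 30.2%, 33.7%, 24% and 8.44% of all tested genes. *pvalb3*, a parvalbumin that buffers calcium in fast fibres, had 21167 to 32675 normalized reads at 0 dph (median 27131), against 2414 to 4234 at stage 23 (median 3162), and rose by 3.13 ± 0.29 (adjusted p = 1.96e-10). *casq1a*, calsequestrin of the sarcoplasmic reticulum, had 7319.6 to 13127 at 4 dph (median 9430.3), against 1580.1 to 2341 at 0 dph (median 1784), and rose by 2.35 ± 0.36 (adjusted p = 3.81e-06). *casq1a* was also the only 1 of the 57 genes called between the sexes, at stage 23, by -2.71 in males against females (adjusted p = 0.00088). It had 113, 32.7 and 96.1 normalized reads in stage 23 males, against 109, 832 and 651 in stage 23 females, so that the sexes overlapped through 1 female. In the last step the largest rises were those of *cacna1sb*, the voltage sensor of the calcium channel (2.0 on the log2 scale), and *ryr1b*, the calcium release channel of skeletal muscle (1.52). *cacna1sb* had 4374 to 7567 normalized reads at 8 dph (median 5937), against 1077 to 2242 at 4 dph (median 1413), and the stages did not overlap.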

How the data were processed

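RNA of whole fish was made into stranded mRNA libraries. The deposited count table was made by the authors with Trimmomatic 0.39, HISAT-3N on the threespine stickleback genome, version 5, SAMtools 1.17 and HTSeq 2.0.2, as uniquely mapped reads per gene on the reverse strand, with counts of paired and orphan reads added. The deposited normalized signal table was made by the authors with DESeq2 1.44.0 (R 4.4.1) as the count divided by the size factor of the library, and lacks genes whose reads summed to under 10. The 2 tables held 25258 and 24388 genes.

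Counts were tested with edgeR 4.0.16 in R 4.3.3 (glmQLFit and glmQLFTest, TMM scaling, filterByExpr over the 12 sex and stage groups, 1 fit of the 36 fish with a single factor of 12 levels, which follows the design the study states), with Benjamini-Hochberg adjustment over the 22168 genes kept and a threshold of 0.05. Fold changes are on the log2 scale. DESeq2 1.42.0, other scalings, no low count filter, each sex alone, each pair of stages alone, a replicate block and leaving out each fish were the alternatives. Paralog ratios were computed with numpy 2.4.6 and tested by exact permutation. The fits and the permutation test were checked on simulated data. Depth ranged from 8637205 to 52089185 counted reads per fish. Genes named in the text are, in each step, up to 5 called genes with the largest rise and up to 5 with the largest fall, fixed representatives of each role, every gene called between the sexes, the paralog pairs that changed and up to 5 other contraction genes per step. The genes and lists were chosen with earlier results of these data known. Gene places come from the table of assembly fGasAcu3.hap1.1 and were used only for chromosome and order, with 43 of 50 symbols matched.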

Additional observations from a re-analysis of the deposited data

Results flagged for a closer look

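In each set of 6 fish of a stage, 1 fish was looked for that stood far from the other 5 in a gene (a gap to its nearest neighbour, as a part of the whole range, above Dixon's 95% critical value). This was met in 9 of 290 sets, 3.10%, where chance flags about 1 in 20 sets. Fish above the others were stage 23 female 2 in *mybpc1* (719 normalized reads, against 472 to 549.8 in the other fish), 0 dph female 1 in *mybpha* (172, against 146 to 152), 4 dph male 1 in *myl1* (28358, against 16080 to 19058) and stage 17 female 3 in *smyd1b* (221, against 103 to 136). Fish below the others were stage 17 female 2 in *mybpc2b* (0, against 7.48 to 28.3), stage 17 female 1 in *myom1b* (56.7, against 107 to 124), stage 23 male 2 in *tnnc2* (8629.7, against 11811 to 13881), 0 dph male 1 in *tnni3k* (22.5, against 39.4 to 51.0) and stage 17 male 2 in *tnnt1* (3.04, against 8.4 to 14.2). Of these fish, stage 23 female 2 and 4 dph male 1 were also those highest in 26 and 24 of the 50 genes in their stages.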

How the results depend on the processing

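No called value changed sign under any alternative run. Of the called single values, 64 of 223 in stage steps, 9 of 18 between the sexes and 3 of 25 paralog ratios lost their call under at least 1 alternative. Scaling to library size alone moved the median of all genes by 0.12 at stage 20, 0.13 at stage 23 and -0.15 at 0 dph, with 63.1%, 64.3% and 44.3% of calls over all genes higher, against 53.3%, 51.8% and 57.7%. The medians of the 50 genes were then 2.83, 0.82 and 0.73, and 1 gene fell at stage 20 and 1 at 0 dph. With males alone 1 gene fell at stage 20, and at 8 dph 6 were called, 4 higher and 2 lower, with 19 other contraction genes called at 4 dph and 9 at 8 dph. With females alone 4 fell at stage 23, 3 at 4 dph and 2 at 8 dph, on fewer fish by construction. With only the 6 fish of the stage, 0 genes were called between the sexes at stage 17. DESeq2 called 3 of the 50 genes in the stage by sex interaction, for which its share over all genes is not given here. The cause of these shifts was not tested. Leaving out each fish gave 1 to 3 genes that fell at stage 20, 4 to 9 that fell at 8 dph, 0 to 4 called between the sexes at stage 17, 2 to 5 at 4 dph, 2 to 4 at 8 dph, and 0 to 1 in the interaction.

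The share of counted reads was 0.0436% at stage 17 and 0.3352% at stage 20 without the non-muscle and smooth muscle genes, and 0.2985%, 0.4653%, 0.8237%, 1.0813% and 1.435% from stage 20 to 8 dph without *ckma*, *ckmb* and *tnnt3a*. The 3 tropomyosin genes, *tpm4a* among them, were kept in the 0.0436% and took 0.0227% of counted reads at stage 17. Males and females of a stage share replicate numbers. The deviations of same-numbered fish had a mean correlation of 0.08 (-0.11 to 0.46, 7 of 18 over 0.1), against -0.04 in 36 other pairs. This difference was not tested, and the labels do not say what the numbers mark. Whether they pair the fish is therefore not known, and the main fit did not use them. With a replicate block, 42, 36, 36, 35 and 22 genes were called in the 5 steps and 50 between stage 17 and 8 dph, the counts between the sexes were 2, 3, 3, 2, 4 and 4, and the calls lost were those of *neb* at stage 23 (log2 fold change 0.51) and *tnnt2a* at 0 dph (0.34). Changes of genes under about 10 normalized reads at a stage, stage 17 included, are to be read with care. *myl13*, with means of 0.17 at stage 20 and 2.76 at stage 23, had a log2 fold change of 3.55 ± 1.04 (SE) between them.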

Other observations

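*unc45b*, the myosin chaperone of striated muscle, had 2426 to 3258 normalized reads at 4 dph (median 2831), against 4406 to 6340.0 at 0 dph (median 5136), and fell by 0.96 (edgeR, adjusted p = 2.51e-08), and fell again by 0.43 at 8 dph (adjusted p = 0.00697). *hsp90aa1.1*, the Hsp90 that zebrafish muscle uses with *unc45b*, had 2464 to 4164 normalized reads at 4 dph (median 3119), against 7718 to 25660.1 at 0 dph (median 14242), and fell by 2.18 (adjusted p = 3.39e-10). The stages did not overlap for either gene. In the same step *smyd1b* fell by 0.67, and at 8 dph it had 1927 to 2562 normalized reads (median 2337). Of the 6 tested assembly genes among the other contraction genes, 6 rose at stage 20 and 3 fell at 4 dph, against 34.3% and 24.4% of all tested genes.

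In the order of genes in assembly fGasAcu3.hap1.1, 4 pairs of the 50 genes lay close together. *myl12.1* was next to *myom1b* and *myl12.2* next to *myom1a*, with 0 genes between, *tnni1a* and *tnnt2a* had 1 gene between them, and *ldb3b* and *myoz1b* had 2. At stage 20 *ldb3b* and *myoz1b* both rose, by 4.50 and 5.76 on the log2 scale, while *tnni1a* fell by 0.50 and *tnnt2a* rose by 1.46. *myom1a* and *myom1b* rose by 7.14 and 2.63, and *myl12.2*, next to *myom1a*, was not called (0.12, adjusted p = 0.223).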
